A study of Mus musculus with 6 samples.

Results

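The endocrine genes of the pancreatic islet were examined in spleen RNA of NOD mice, as the islet counterpart of the exocrine pancreas transcripts in the same RNA. The 10 genes were Ins2, Gcg, Sst, Ppy, Iapp, Chga, Slc2a2, Pdx1, Nkx6-1 and Pcsk1, out of 18193 genes that have a probe set of their own on the array. They were taken for their role in islet endocrine cells and not for their level, though with earlier results of these data known. Every probe set annotated to 1 of these genes alone was used, which gave 14 of the 45037 probe sets tested. A single probe set measured each of 8 genes, Iapp had 4 and Pdx1 had 2.

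RNA came from female mice of the NOD strain, which develops autoimmune T1D spontaneously. Untreated non-diabetic mice had not developed diabetes, untreated diabetic mice were overtly diabetic, and TSA-treated mice had received trichostatin A (TSA), which inhibits histone deacetylases, under the skin each week from 18 to 24 wk of age at 500 µg/kg. The TSA group was selected on outcome, since it holds cured animals alone. The labels give an age of 32 to 36 wk for all groups, whereas the study's methods state that diabetic mice were younger at death than cured mice, and age and group cannot then be told apart. The labels name splenocytes, and the methods describe lysed whole spleens. For each group, RNA of 3 to 5 mice by the labels, and of slightly more by the methods, was combined into 1 pool, and that pool was labeled and hybridized on 2 arrays. Every SD, interval and p-value here therefore measures how hybridizations of 1 pool vary, and not how mice vary. In such bulk RNA, fewer cells of a type and less RNA per cell cannot be told apart.

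The islets of Langerhans are small clusters of hormone-secreting cells scattered among the acinar cells of the pancreas, which make digestive enzymes. Beta cells secrete insulin together with amylin, alpha cells glucagon, delta cells somatostatin and PP cells pancreatic polypeptide. The hormones are cut from larger precursors and stored in dense granules, and the identity of the cells is held by a small set of transcription factors. In T1D the beta cells are destroyed by T cells, and the spleen is read as a source of those immune cells, not of islet hormone.

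Levels are log2 values after Robust Multi-array Average (RMA) summarization. Probe sets differ in affinity, so no order among the genes is read from them, and each is set against the median of its own array, which lay between 3.79 and 3.95. All arrays carried T cell and B cell markers of spleen. Per array, the median level was 8.06 to 9.38 over 3 T cell genes and 9.14 to 11.11 over 3 B cell genes. TSA-treated replicate 2 stood apart in some spleen markers and in RNA quality. The B cell gene Cd79a was at 5.42 on this array and at 7.70 to 9.75 on the others. Of 4 macrophage genes, C1qa was at 3.42, below the array median, and at 7.24 to 9.30 on the others. Cd68 was also lowest there, at 4.14, while C1qb at 9.37 and Adgre1 at 7.63 lay within the range of the other arrays. All 3 B cell and all 3 T cell genes were lower in TSA-treated than in untreated non-diabetic mice at an unadjusted p under 0.05 from limma. Of all probe sets 14.7% had such a p, and 0 of these genes were called. Between diabetic and TSA-treated mice, 3 B cell and 0 T cell genes had such a p, against 4.27% of all, and 0 were called. The beta-actin signal of the 3′ end exceeded that of the 5′ end by 5.61 on TSA-treated replicate 2, against 2.05 to 3.45 on the others. Among those, diabetic replicate 2 was at 3.32 and TSA-treated replicate 1 at 3.45, and the rest at 2.05 to 2.42. On TSA-treated replicate 2, 33.9% of all probe sets had their highest value. As a description, the untreated non-diabetic duplicates correlated over probe sets at a Pearson r of 0.993, the diabetic ones at 0.973 and the TSA-treated ones at 0.966. Some arrays of different groups correlated more closely than duplicates did. Diabetic replicate 1 correlated with the untreated non-diabetic arrays at 0.987 and 0.985, and diabetic replicate 2 with TSA-treated replicate 1 at 0.990.

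Islet hormone and endocrine cell transcripts were near or below the middle of the array in each group, and no difference between groups passed the test. Over the 14 probe sets and 6 arrays, levels ran from 2.25 to 4.41. Averaged over the 6 arrays, 1 of the 14, that of Ins2, exceeded the median probe set, at 3.89. On a single array, 1 or 2 of the 14 lay above the array median. The median over the 14 was 2.93 and 2.82 on the untreated non-diabetic arrays, 2.94 and 3.05 on the diabetic arrays, and 2.76 and 2.97 on the TSA-treated arrays, so that the arrays of the groups overlapped.

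**Figure D1:**
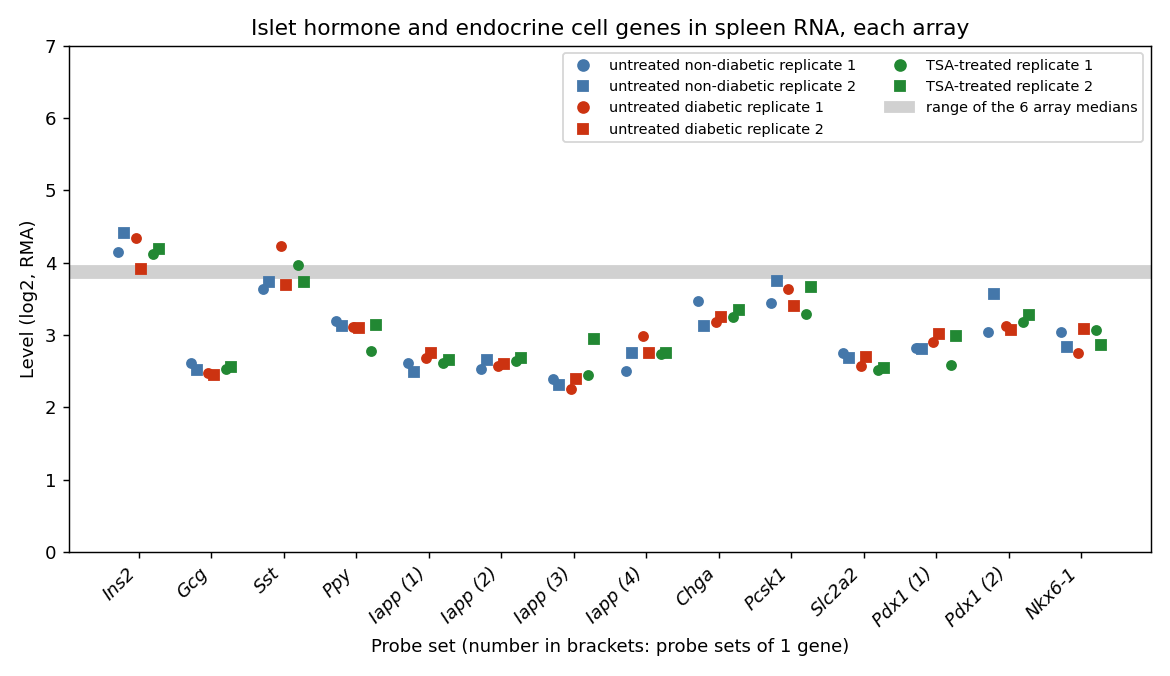
Log2 RMA level of each of the 14 probe sets (horizontal axis) on each of the 6 arrays, with circles and squares for the replicates of a group and a grey band for the range of the 6 array medians. The Ins2 probe set alone reached or passed the band on all arrays, the Iapp, Gcg and Slc2a2 probe sets lay between 2.25 and 2.98, and the groups of a probe set mixed or sat close together.

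Ins2, 1 of the 2 insulin genes of the mouse, was read by the probe set 1422446_x_at. Its suffix marks probes that may also match other transcripts, and the near-identical Ins1 has no probe set of its own in the annotation used and was not analysed here. The level was 4.16 and 4.41 in untreated non-diabetic mice, 4.35 and 3.91 in diabetic mice, and 4.12 and 4.19 in TSA-treated mice. The lowest and the second highest value were both diabetic arrays, and all groups overlapped. On the 6 arrays the probe set stood 0.12 to 0.49 above the array median. Untreated non-diabetic mice had a mean of 4.28 ± 0.18 (SD, n = 2 arrays), diabetic mice one of 4.13 ± 0.31 and TSA-treated mice one of 4.15 ± 0.05. Diabetic minus untreated non-diabetic was -0.15 (95% interval -0.66 to 0.36), which allows a diabetic level of 0.631 to 1.28 times the other on this scale. For TSA-treated minus untreated non-diabetic mice the difference was -0.13 (-0.64 to 0.38, adjusted p = 0.831 from limma). Diabetic minus TSA-treated was -0.02 (-0.54 to 0.49).

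Gcg, which codes for glucagon in alpha cells, had the narrowest spread among the genes with a single probe set. Its level was 2.62 and 2.52 in untreated non-diabetic mice, 2.47 and 2.45 in diabetic mice, and 2.53 and 2.56 in TSA-treated mice. Both diabetic arrays lay below the other 4, by little. All 6 values were 1.27 to 1.44 below the array medians, close to the low end of the measured range. Diabetic mice were at -0.11 (-0.48 to 0.27) against untreated non-diabetic mice and at -0.08 (-0.45 to 0.29) against TSA-treated mice.

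Sst, which codes for somatostatin, the hormone of delta cells, gave 3.64 and 3.73 in untreated non-diabetic mice, 4.23 and 3.69 in diabetic mice, and 3.97 and 3.74 in TSA-treated mice. The highest value came from diabetic replicate 1, and its duplicate from the same pool was lower than both TSA-treated arrays. Only on diabetic replicate 1 and TSA-treated replicate 1 did Sst pass the array median, by 0.32 and 0.17. The difference between diabetic and untreated non-diabetic mice was 0.27 (-0.29 to 0.83, adjusted p = 0.96 from limma). That upper bound, 1.78-fold, was the highest of the 14 probe sets in this comparison. TSA-treated arrays lay above both untreated non-diabetic arrays, with a difference of 0.17 (-0.39 to 0.72, adjusted p = 0.793 from limma).

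Ppy, the gene of pancreatic polypeptide, was at 3.20 and 3.13 in untreated non-diabetic mice, 3.11 and 3.10 in diabetic mice, and 2.78 and 3.14 in TSA-treated mice. The diabetic arrays were below the untreated non-diabetic ones by a difference of means of -0.05 (-0.50 to 0.39). The duplicates of TSA-treated mice were further apart than any pair of group means. For TSA-treated minus untreated non-diabetic mice the difference was -0.20 (-0.65 to 0.24).

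Iapp codes for amylin, the peptide that beta cells secrete with insulin, and its 4 probe sets all lay 0.93 to 1.66 below the array medians. The probe set with the highest mean, 1456004_x_at, has the same suffix as that of Ins2, so its probes may also match other transcripts. It gave 2.51 and 2.75 in untreated non-diabetic mice, 2.98 and 2.75 in diabetic mice, and 2.74 and 2.76 in TSA-treated mice. Only diabetic replicate 1 stood above the rest, and the groups overlapped. Diabetic minus untreated non-diabetic was 0.24 (-0.20 to 0.67, adjusted p = 0.937 from limma). A second probe set, 1423509_a_at, gave 2.61 and 2.49, then 2.69 and 2.75, then 2.61 and 2.65 in the same order of groups. There the diabetic arrays were above all others, with a difference of 0.17 (-0.20 to 0.55) from untreated non-diabetic mice. The probe set 1423510_at differed between the same groups by -0.01 (-0.38 to 0.37), with all arrays between 2.53 and 2.68.

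The remaining Iapp probe set, 1437323_a_at, held the largest difference of all 42 computed, and a single array carried it. Its levels were 2.40 and 2.31 in untreated non-diabetic mice, 2.25 and 2.39 in diabetic mice, and 2.44 and 2.95 in TSA-treated mice. The value of 2.95 came from TSA-treated replicate 2, the array with the strongest 3′ signal, whereas its duplicate from the same pool was close to the other arrays. Diabetic minus TSA-treated was -0.38 (-0.90 to 0.15, adjusted p = 0.902 from limma), and TSA-treated minus untreated non-diabetic was 0.34 (-0.18 to 0.86, adjusted p = 0.535 from limma). Without TSA-treated replicate 2 they were -0.12 and 0.09. The other 3 Iapp probe sets differed between TSA-treated and untreated non-diabetic mice by 0.07 to 0.12. The part of RNA quality in this value was not tested.

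Chga, which codes for chromogranin A, a protein of the dense granules of endocrine cells, was at 3.47 and 3.13 in untreated non-diabetic mice, 3.19 and 3.24 in diabetic mice, and 3.24 and 3.35 in TSA-treated mice. The untreated non-diabetic duplicates enclosed all the other arrays. The difference between diabetic and untreated non-diabetic mice was -0.08 (-0.53 to 0.36). Pcsk1, a convertase that cuts proinsulin and other prohormones, gave 3.45 and 3.75, then 3.64 and 3.40, then 3.29 and 3.66 in the same order. Its groups overlapped, and the difference of diabetic from untreated non-diabetic mice was -0.08 (-0.60 to 0.45).

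Slc2a2 codes for GLUT2, the glucose transporter of rodent beta cells that liver also carries. Its level was 2.75 and 2.69 in untreated non-diabetic mice, 2.57 and 2.69 in diabetic mice, and 2.52 and 2.54 in TSA-treated mice. The TSA-treated arrays were below the other 4, with a difference of -0.19 from untreated non-diabetic mice (-0.56 to 0.19, adjusted p = 0.64 from limma). All 6 values were 1.10 to 1.41 below the array medians. The 5 liver cell genes listed ranged from 2.32 to 4.30, with 0 called in any comparison.

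The transcription factors gave the same picture. Pdx1, needed for pancreas development and for beta cell identity, was at 3.04 and 3.56 in untreated non-diabetic mice, 3.12 and 3.07 in diabetic mice, and 3.18 and 3.28 in TSA-treated mice by its probe set with the highest mean, 1422174_at. Untreated non-diabetic replicate 2 was the highest array and its duplicate the lowest, so that this group enclosed the others. The difference of diabetic from untreated non-diabetic mice was -0.20 (-0.73 to 0.32). By the probe set 1422173_at, which read 2.83 and 2.81, 2.90 and 3.02, and 2.58 and 2.99, the sign of that difference was the opposite, at 0.14 (-0.33 to 0.62). Nkx6-1, a regulator of mature beta cells, gave 3.04 and 2.84 in untreated non-diabetic mice, 2.76 and 3.09 in diabetic mice, and 3.07 and 2.86 in TSA-treated mice. Its 3 group means lay within 2.92 to 2.96.

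Across the members, 0 of 14 probe sets passed limma at an adjusted p under 0.05 between diabetic and untreated non-diabetic mice, where 0.0888% of all probe sets did, and 0 passed at an unadjusted p under 0.05, where 6.27% of all did. Between TSA-treated and untreated non-diabetic mice the counts were 0 of 14 at both thresholds, against 0.0688% and 14.7% of all probe sets. Between diabetic and TSA-treated mice they were again 0 of 14, against 0.0266% and 4.27%. The methods' t-test, adjusted, also called 0 of 14 in each comparison, against 0.00222%, 0.00444% and 0% of all probe sets. Unadjusted, 0, 1 and 0 members had a p under 0.05 by that test, against 5.92%, 11.6% and 3.02% of all, and the 1 was Slc2a2 between TSA-treated and untreated non-diabetic mice. The smallest adjusted value from limma was 0.535, that of Iapp above. With so few probe sets called in all, an uncalled member does not show an unchanged one, and the intervals say how much the arrays allow.

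Arrays of the groups failed to overlap no more often than over the array as a whole, except in the last comparison, where 1 gene gave several of the probe sets. Diabetic and untreated non-diabetic arrays did not overlap for 4 of 14 probe sets, 2 higher and 2 lower in diabetic mice, which is 28.6%, against 41.0% of all probe sets. TSA-treated and untreated non-diabetic arrays did not overlap for 4, with 3 higher and 1 lower, against 47.8% of all. Diabetic and TSA-treated arrays did not overlap for 6, which is 42.9%, with 2 higher and 4 lower in diabetic mice, against 27.5% of all. Of those 6, 3 are probe sets of Iapp that went both ways. In diabetic mice 1423509_a_at was higher, while 1423510_at and 1437323_a_at were lower. The Iapp probe set with the highest mean, 1456004_x_at, overlapped. Probe sets of 1 gene are not independent, so this share is not read as a result about the members. The median difference of the 14 was -0.05, -0.01 and 0.01 in the 3 comparisons, beside 0.01, 0.05 and -0.02 over all probe sets. For 11 of the 14, the largest gap between duplicates of 1 pool exceeded every difference of group means.

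**Figure D2:**
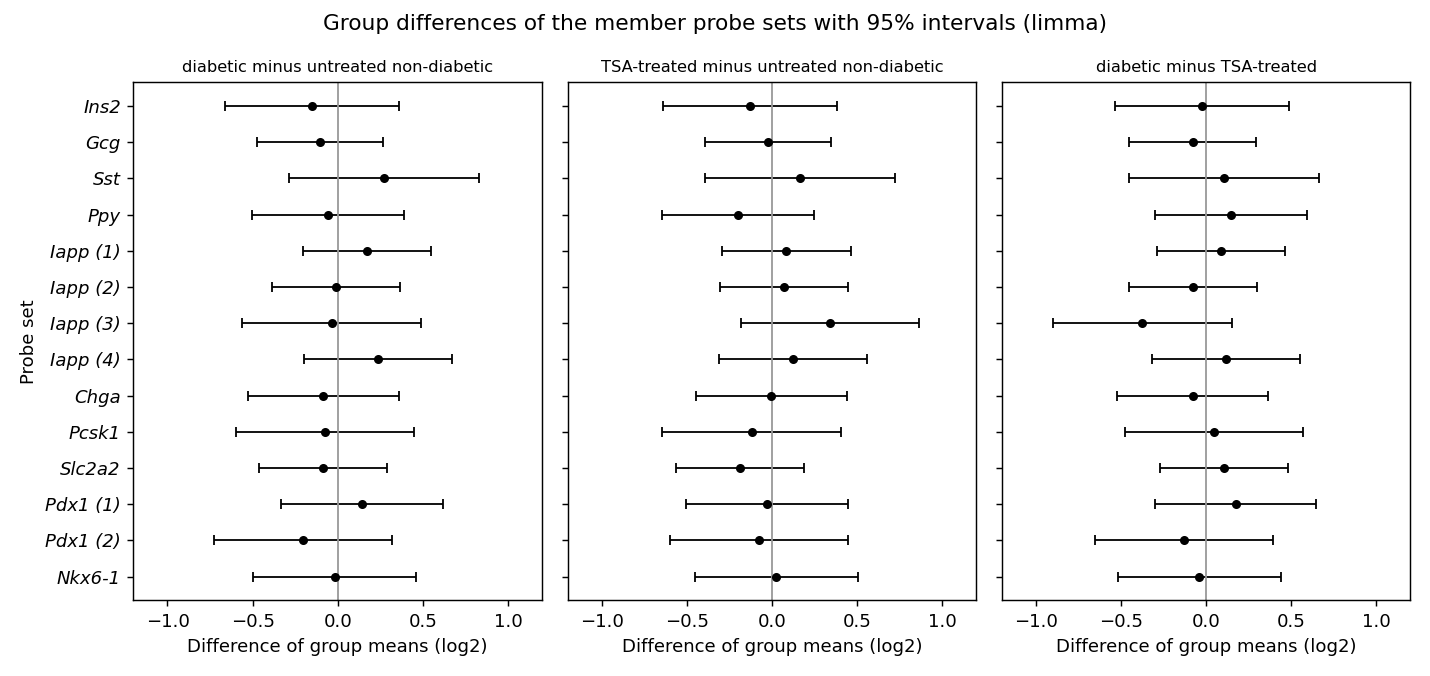
Difference of group means on the log2 scale (horizontal axis) for the 14 probe sets in the 3 comparisons, as points with 95% intervals from limma. All 42 intervals span 0, and their bounds run from -0.90 to 0.86, which is 0.536 to 1.82 times on a linear scale.

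Exocrine genes of the same organ moved on a different scale. Of 16 acinar cell genes, which code for digestive enzymes and their cofactors, 14 were measured, and the list overlaps the genes that the study selected on these arrays, so it is not independent evidence of their direction. The median over the 14 was 5.16 and 5.19 in untreated non-diabetic mice, 11.65 and 11.74 in diabetic mice, and 9.04 and 8.29 in TSA-treated mice. The groups were fully apart, with TSA-treated arrays between the others. In diabetic against untreated non-diabetic mice, all 14 acinar genes were higher and 13 were called, against 0.0888% of all probe sets. Over the 14 the differences ran from 4.81 to 7.91 with a median of 6.20. All 14 were also higher in TSA-treated than in untreated non-diabetic mice, by a median of 3.51, and 11 were called, against 0.0688% of all probe sets. Diabetic mice exceeded TSA-treated mice for all 14, by a median of 2.47, and 5 were called, against 0.0266% of all. All 14 kept their direction in each of the 3 comparisons under all 15 alternatives, but the calls did not hold throughout. Between TSA-treated and untreated non-diabetic mice 0 were called without untreated non-diabetic replicate 1, without replicate 2 of that group, by the methods' t-test or at an adjusted p under 0.001. Between diabetic and TSA-treated mice 14 were called without TSA-treated replicate 1 and 0 without any 1 of the other 5 arrays, and 0 also with the replicate block, with the 2 groups alone, with median centring, at the stricter threshold and by the methods' t-test. For diabetic against untreated non-diabetic mice, too, 0 were called by the methods' t-test, where the other alternatives called 10 to 14. When diabetic were compared with untreated non-diabetic mice, the lowest interval bound of an acinar gene was 4.32 and the highest bound of an islet member was 0.83. In the comparison of TSA-treated with untreated non-diabetic mice these bounds overlapped, at 0.46 for the lowest acinar gene and 0.86 for the highest islet probe set. Between diabetic and TSA-treated mice they were 0.97 and 0.66. Near the low end of the scale a change is compressed, so the islet intervals bound the change of the measured signal and not of the number of transcripts.

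Genes of the pancreatic duct, the third epithelial compartment, also stayed low. Of 8 listed, 6 were measured, with values of 2.42 to 4.01 and 0 called in any comparison, and the smallest unadjusted p among them was 0.122.

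The level of the islet genes was also set beside that of retinal photoreceptor genes, which mark a tissue outside the dissection, and 18 of 20 were measured. Their median over genes was 2.94 to 3.18 on the 6 arrays, while that of the 10 islet genes, each by its highest probe set, was 3.09 to 3.21. The ranges of the arrays' medians overlapped, but on each array the islet median was the higher. The 2 medians were closest on TSA-treated replicate 1, at 3.12 against 3.11. They were furthest apart on untreated non-diabetic replicate 1, at 3.12 against 2.94. Single photoreceptor genes ran from 2.29 to 6.16 and islet probe sets from 2.25 to 4.41, so a level like that of Ins2 was also found among photoreceptor genes. These values are a description, since probe sets of different genes are not on 1 scale of abundance, and they do not show that a transcript was absent.

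**Figure D3:**
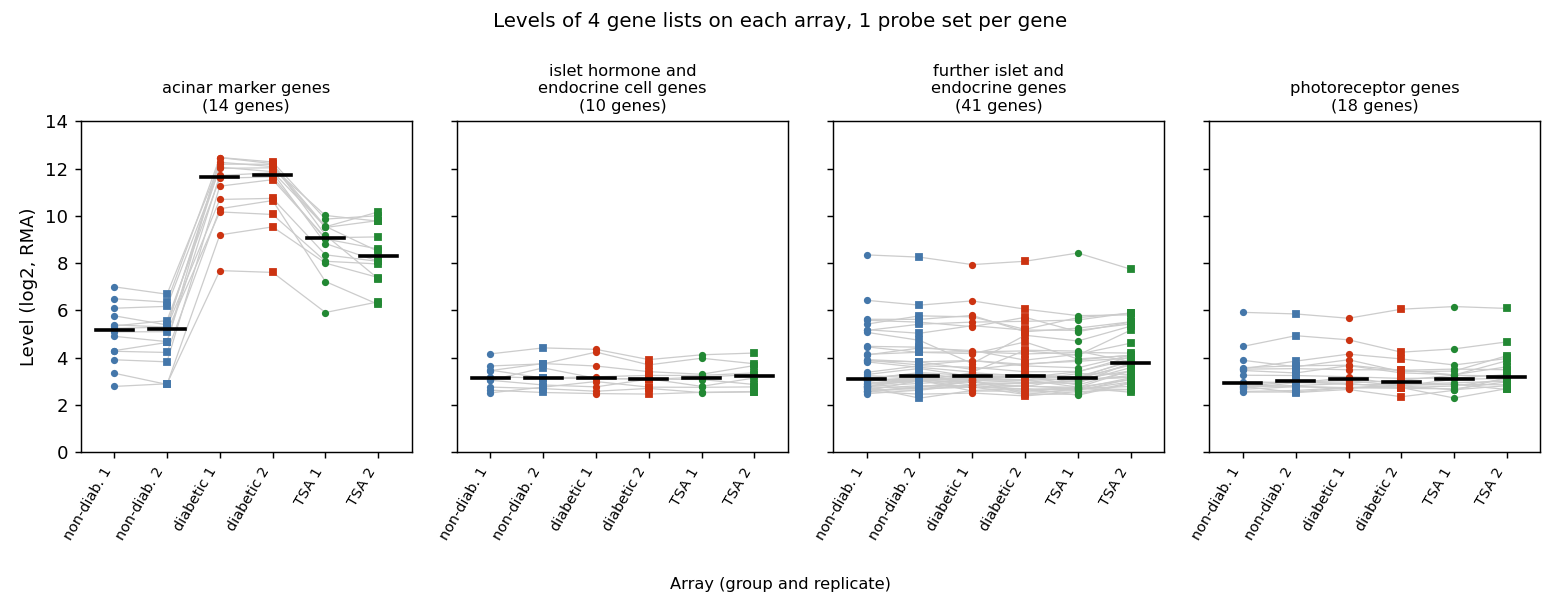
Log2 RMA level of 4 gene lists on each of the 6 arrays, with 1 point per gene at its probe set with the highest mean, grey lines joining a gene across arrays and black bars for the list's median. The acinar median moves from 5.16 on the first untreated non-diabetic array to 11.74 on the second diabetic array, while that of the 10 islet genes stays between 3.09 and 3.21.

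Further genes of islet and other endocrine cells were read beside the 10. Their lists were written with an earlier result on islet genes of these data known, so they are not an independent check. Of 50 on the lists, 41 had a probe set of their own, and the other 9 were not analysed here. They comprised 4 other peptide hormones, 14 genes of the granules and of hormone processing, 12 of nutrient sensing and secretion and 11 transcription factors. In each comparison limma called 0 of 41, against 0.0888%, 0.0688% and 0.0266% of all probe sets. Unadjusted, 0, 1 and 0 genes had a p under 0.05 from limma, against 6.27%, 14.7% and 4.27% of all probe sets. By the methods' t-test 4, 1 and 1 did, against 5.92%, 11.6% and 3.02% of all. The median difference was -0.03 between diabetic and untreated non-diabetic mice, 0.14 between TSA-treated and untreated non-diabetic mice and -0.12 between diabetic and TSA-treated mice. The part of TSA-treated replicate 2 in the last pair of medians was not tested. That array held the highest value of 26 of the 41 genes, while each other array held that of 2 to 5. Over dim probe sets, those under the median probe set, 45.8% had their highest value on that array. Of the 14 member probe sets 2 did.

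Among these genes 12 of 41 averaged higher than the median probe set, against 1 of the 10 member genes. The highest was Npy, which codes for neuropeptide Y, a peptide of sympathetic nerves as well as of islet cells. It gave 8.35 and 8.25 in untreated non-diabetic mice, 7.93 and 8.08 in diabetic mice, and 8.42 and 7.74 in TSA-treated mice. Diabetic arrays were below the untreated non-diabetic ones, by a difference of -0.29 (-0.91 to 0.33), and the TSA-treated duplicates enclosed the other 4 arrays. Of 5 sympathetic nerve genes measured, 2 averaged higher than the median probe set, Dbh at 5.21 and Slc6a2 at 4.54, and Th, the defining enzyme, was at 3.26 to 3.37 on all arrays. Their part in the level of Npy was not tested.

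Rab3d, a small GTPase of secretory granules that many secretory cells share, was the 1 gene of the 41 with an unadjusted p under 0.05 from limma. Its level was 6.42 and 6.22 in untreated non-diabetic mice, 6.40 and 6.05 in diabetic mice, and 5.77 and 5.81 in TSA-treated mice. The TSA-treated arrays lay below the other 4. The difference from untreated non-diabetic mice was -0.53 (-0.99 to -0.07), with an adjusted p = 0.287 from limma, and diabetic minus TSA-treated was 0.43 (-0.03 to 0.90). These were the lowest and the highest difference of the 41 genes in their comparisons.

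Ica1, an islet cell autoantigen found on secretory vesicles, had the highest differences from untreated non-diabetic mice. It gave 5.15 and 5.41 in untreated non-diabetic mice, 5.50 and 5.53 in diabetic mice, and 5.59 and 5.89 in TSA-treated mice. The groups did not overlap, in that order. The differences were 0.24 (-0.23 to 0.70) for diabetic and 0.46 (-0.00 to 0.93, adjusted p = 0.339 from limma) for TSA-treated mice, and TSA-treated replicate 2 was the highest array. Cpe, carboxypeptidase E, which trims prohormones after they are cut, had the lowest difference of the 41 genes in both comparisons of diabetic mice. Its level was 5.07 and 4.73 in untreated non-diabetic mice, 3.75 and 4.94 in diabetic mice, and 4.70 and 5.33 in TSA-treated mice. One diabetic array, replicate 1, set these differences of -0.55 (-1.61 to 0.50) and -0.67 (-1.73 to 0.39), since its duplicate lay among the other arrays.

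Ptprn, the T1D autoantigen IA-2 of granule membranes, ranged from 5.19 to 5.87 over the arrays, with a difference of diabetic from untreated non-diabetic mice of -0.13 (-0.73 to 0.46). Kcnj11, a subunit of the beta cell potassium channel that closes on glucose, ranged from 5.09 to 5.78, with a difference of -0.18 (-0.82 to 0.46). Its TSA-treated arrays were below both untreated non-diabetic arrays by a difference of means of -0.24 (-0.88 to 0.40). Neither gene passed the test in any comparison.

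**Figure D4:**
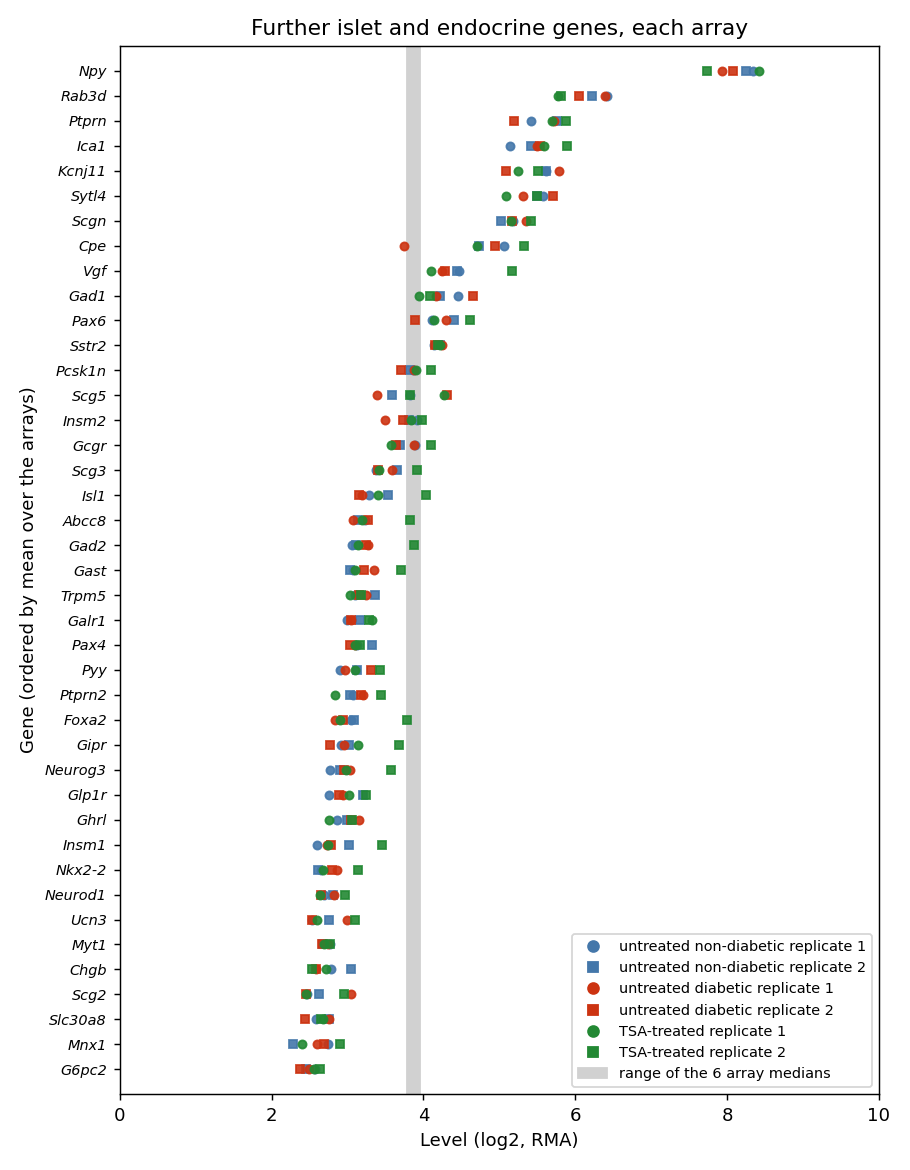
Log2 RMA level (horizontal axis) of the 41 further islet and endocrine genes on each of the 6 arrays, ordered by mean, with the range of the array medians in grey. Npy lies highest, at 7.74 to 8.42, and the green squares of TSA-treated replicate 2 are the rightmost point for 26 of 41 genes.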

How the data were processed

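Total spleen RNA was hybridized to 6 Affymetrix Mouse Genome arrays. The authors quantile-normalized the arrays and used RMA to summarize probes. Their deposited log2 values were used unchanged. Of 45101 probe sets, 64 controls were left out, and no filter on level was applied. Probe sets were named from the platform annotation, of which 34945 name 1 gene, 932 several and 9160 none. The number of arrays limits the precision.

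All 6 arrays entered 1 fit (limma 3.58.1, R 4.3.3) that gave each group its own mean, with 3 residual and 2.94 prior degrees of freedom, 95% intervals from the moderated variances and Benjamini-Hochberg adjustment over 45037 probe sets within each of 3 comparisons. Tests were two-sided and called at an adjusted p under 0.05. The fit was tested on simulated data. Where a gene had several probe sets, the one with the highest mean led.

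The members and all lists were chosen with earlier results of these data known. All 10 members were named, and of the further genes the 5 with the highest mean and those with the largest difference either way in a comparison.

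Alternatives were the replicate number as a block, each array left out, 2 groups alone, an intensity trend and the methods' t-test. That test was an ordinary t-test, without the LPE test and the ANOVA that the methods also name. Further alternatives were an adjusted p under 0.001, median centring and a further quantile normalization. The last were a filter on dim probe sets and the mean of a gene's probe sets.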

Additional observations from a re-analysis of the deposited data

How the results depend on the processing

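The counts of called member probe sets and of called further islet genes were 0 in each of the 3 comparisons under all 15 alternatives. Of 537 member differences recomputed, 40 turned their sign, 31 of them among the 252 from leaving out an array. No difference that turned exceeded 0.19 in size before or after. Both totals include differences that could not change, so they overstate stability. The replicate block, the 2 groups alone, the intensity trend and the methods' t-test keep the group means. Leaving out an array of the group outside a comparison keeps them too. The largest recomputed difference was that of Iapp 1437323_a_at without TSA-treated replicate 1, at -0.63 for diabetic minus TSA-treated mice (adjusted p = 0.137 from limma, with an unadjusted value of 0.0154). The filter on dim probe sets left 1 member probe set, that of Ins2, and 12 further genes.

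Replicate numbers did not pair the arrays: deviations of replicate 1 correlated at -0.34, -0.04 and -0.10 between the groups, and with the replicate block the member calls were 0. Over all probe sets, calls moved with single arrays, from 40 to 243 between diabetic and untreated non-diabetic mice without diabetic replicate 1, and from 31 to 2045 between TSA-treated and untreated non-diabetic mice without TSA-treated replicate 1. The latter count fell from 31 to 0 without either untreated non-diabetic array. Between diabetic and TSA-treated mice the count went from 12 to 1047 without TSA-treated replicate 1, and to 0 without any 1 of the other 5 arrays, with the replicate block, the 2 groups alone, the methods' t-test, median centring or an adjusted p under 0.001. A member count of 0 under these alternatives therefore says little. Low signal over background limits every member, most of which lay below the array median.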
